A study of Mus musculus with 24 samples.

Results

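Tight junction genes were followed in the kidneys of mice that lacked Lrp2 in proximal tubule cells. The genes are 9, chosen by symbol from 54532 gene identifiers: the claudins Cldn1, Cldn2, Cldn3, Cldn4, Cldn7 and Cldn8, the scaffold gene Tjp1 (ZO-1), the transmembrane gene Ocln (occludin) and F11r (the adhesion molecule JAM-A). All 9 were measured in all 24 libraries and all 9 were among the 17286 genes with enough counts to be tested. Lrp2 encodes megalin, a large receptor by which proximal tubule cells take filtered proteins out of the urine. The 4 groups of 6 libraries were kidneys of proximal tubule cell-specific Lrp2-deficient mice (KO) after 2 weeks of Western diet, wild-type littermates (WT) after 2 weeks, KO after 12 weeks and WT after 12 weeks. All 4 groups ate the Western diet, a fat-rich rodent feed, so no group shows these genes on another diet. The labels name the line LRP2-SM22 without explaining SM22. The promoter that drove the deletion and the age of the mice are not given in the labels. They also do not say that every library is a mouse of its own, so a p-value covers the spread between libraries, part of which may be technical.

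A tight junction is the belt that seals neighbouring epithelial cells at their apical edge. Claudins span the membrane in this belt and set which ions and how much water pass between the cells, whereas occludin and JAM-A are further membrane proteins of the junction, and ZO-1 ties all of them to the actin skeleton. Each nephron segment carries its own claudins: the leaky proximal tubule carries the cation and water pore claudin-2, and the tight collecting duct carries claudin-3, claudin-4, claudin-7 and claudin-8. Claudin-1 is best known in the kidney from the parietal cells that line Bowman's capsule.

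Lrp2 averaged 352 ± 142 CPM in KO and 2005 ± 261 CPM in WT kidneys at 2 weeks, and 323 ± 73.1 CPM in KO and 1876 ± 382 CPM in WT kidneys at 12 weeks (SD, n = 6 each), with no overlap of the groups. CPM are the counts of a gene scaled to a common library size, with TMM factors. Libraries held 16.3 to 25.2 megacounts (M) in KO and 15.6 to 34.1 M in WT at 2 weeks, and 11.3 to 15.2 M in KO and 11.4 to 14.5 M in WT at 12 weeks. Each member had at least 74 counts in every library. The samples are whole-kidney RNA, in which fewer cells of a type and less RNA per cell cannot be told apart. Of 15 proximal tubule markers, 11 were lower and 0 higher in KO kidneys at 2 weeks, and 13 were lower and 0 higher at 12 weeks. Of 17 tubular injury genes, 16 were higher at 2 weeks, and 15 were higher and 1 lower at 12 weeks. Of all genes tested, 18.2% were higher and 13.4% lower at 2 weeks, and 20.7% higher and 17.7% lower at 12 weeks.

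The promoter windows of 5 claudins are printed because these are the genes on which the results turn: Cldn4, Cldn3, Cldn7 and Cldn1, which rose in KO kidneys, and Cldn2, the proximal tubule claudin. They are the 250 bases before the annotated start (RefSeq, GRCm38.p6), 5′ to 3′ on the gene's strand. Capitals mark matches, on either strand, to an AP-1 motif TGANTCA, a GC box GGGCGG or a TATA box TATAAA. The windows lie at chr5:134946935-134947184 on the minus strand for Cldn4, chr5:134985964-134986213 on the plus strand for Cldn3, chr11:69964529-69964778 on the plus strand for the first of the 2 starts of Cldn7, chr16:26371840-26372089 on the minus strand for Cldn1 and chrX:139800558-139800807 on the plus strand for Cldn2.
Cldn4: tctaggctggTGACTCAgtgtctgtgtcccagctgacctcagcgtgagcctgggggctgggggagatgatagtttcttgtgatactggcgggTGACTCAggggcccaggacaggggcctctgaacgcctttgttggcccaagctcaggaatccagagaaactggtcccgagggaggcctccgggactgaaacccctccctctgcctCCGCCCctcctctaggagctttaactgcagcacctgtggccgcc
Cldn3: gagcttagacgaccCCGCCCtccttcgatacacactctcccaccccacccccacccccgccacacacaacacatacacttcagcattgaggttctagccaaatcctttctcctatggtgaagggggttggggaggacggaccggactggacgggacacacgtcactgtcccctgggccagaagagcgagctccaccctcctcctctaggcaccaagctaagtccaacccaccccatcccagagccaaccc
Cldn7: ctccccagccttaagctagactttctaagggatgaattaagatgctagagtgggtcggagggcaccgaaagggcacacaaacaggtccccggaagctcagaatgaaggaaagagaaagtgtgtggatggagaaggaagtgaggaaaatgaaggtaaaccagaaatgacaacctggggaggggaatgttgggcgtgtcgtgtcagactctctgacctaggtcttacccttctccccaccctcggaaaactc
Cldn1: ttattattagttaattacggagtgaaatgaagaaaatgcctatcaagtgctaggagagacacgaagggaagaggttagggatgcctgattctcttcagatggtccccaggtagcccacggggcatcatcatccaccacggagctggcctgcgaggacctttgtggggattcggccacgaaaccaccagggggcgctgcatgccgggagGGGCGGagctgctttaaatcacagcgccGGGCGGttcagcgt
Cldn2: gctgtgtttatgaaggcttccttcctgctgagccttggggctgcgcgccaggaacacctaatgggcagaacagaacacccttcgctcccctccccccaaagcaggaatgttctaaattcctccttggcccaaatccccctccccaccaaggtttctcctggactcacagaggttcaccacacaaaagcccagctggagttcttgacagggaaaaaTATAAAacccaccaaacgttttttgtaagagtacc
The Cldn4 window held AP-1 matches starting 240 and 158 bases before the start and a GC box 44 bases before it. Over all 27025 genes with an entry, 6.87% had an AP-1 match in a window of this length, 32.9% a GC box and 13.0% a TATA box. Cldn3 had a GC box 236 bases before its start, and the printed Cldn7 window held none of the marked motifs. The window of the second Cldn7 start, not printed, held a GC box 6 bases before that start. In the Cldn1 window GC boxes lay at 42 and 14 bases. A TATA box 35 bases before the start was the match in the Cldn2 window. The Grainyhead-like motif AACCNGTT, found in 1.71% of promoters, had no match in any window of the 8 members with an entry, Cldn7 and Ocln being read at both of their starts. AP-1 matches were found in the windows of Cldn4 and F11r among these 8. Cldn8 was the member with no entry. A match is a run of letters and does not show that a factor binds there.

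After 2 weeks of diet, 5 of the 9 genes were higher and 0 lower in KO than in WT kidneys (edgeR quasi-likelihood test, Benjamini-Hochberg adjusted p under 0.05 over all tested genes). Of all genes tested, 31.6% passed this threshold, 18.2% as higher and 13.4% as lower in KO. The 9 genes were chosen with earlier results of these data known, so their counts beside these shares are a description and no test. The genes that rose were Cldn4, Cldn1, Cldn7, Cldn3 and F11r. Counting genes with an unadjusted p under 0.05 gave 6 higher and 0 lower, and DESeq2 called 5 higher and 0 lower. At 12 weeks 5 were higher (Cldn4, Cldn3, Cldn7, Cldn1 and Tjp1) and 1 was lower (Cldn2) in KO, where 38.5% of all genes tested passed, 20.7% as higher and 17.7% as lower. The median log2 fold change of the 9 genes was 0.20 at 2 weeks and 0.29 at 12 weeks, beside -0.01 and 0.00 over all genes tested. Every KO library lay above every WT library for Cldn1, Cldn3, Cldn4 and Cldn7 at both durations. Such a separation upward was seen in 10.3% of all tested genes at 2 weeks and in 10.1% at 12 weeks. A separation downward was seen in 0 of the 9 genes at either duration, and in 6.32% of all tested genes at 2 weeks and 8.3% at 12 weeks.

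**Figure D1:**
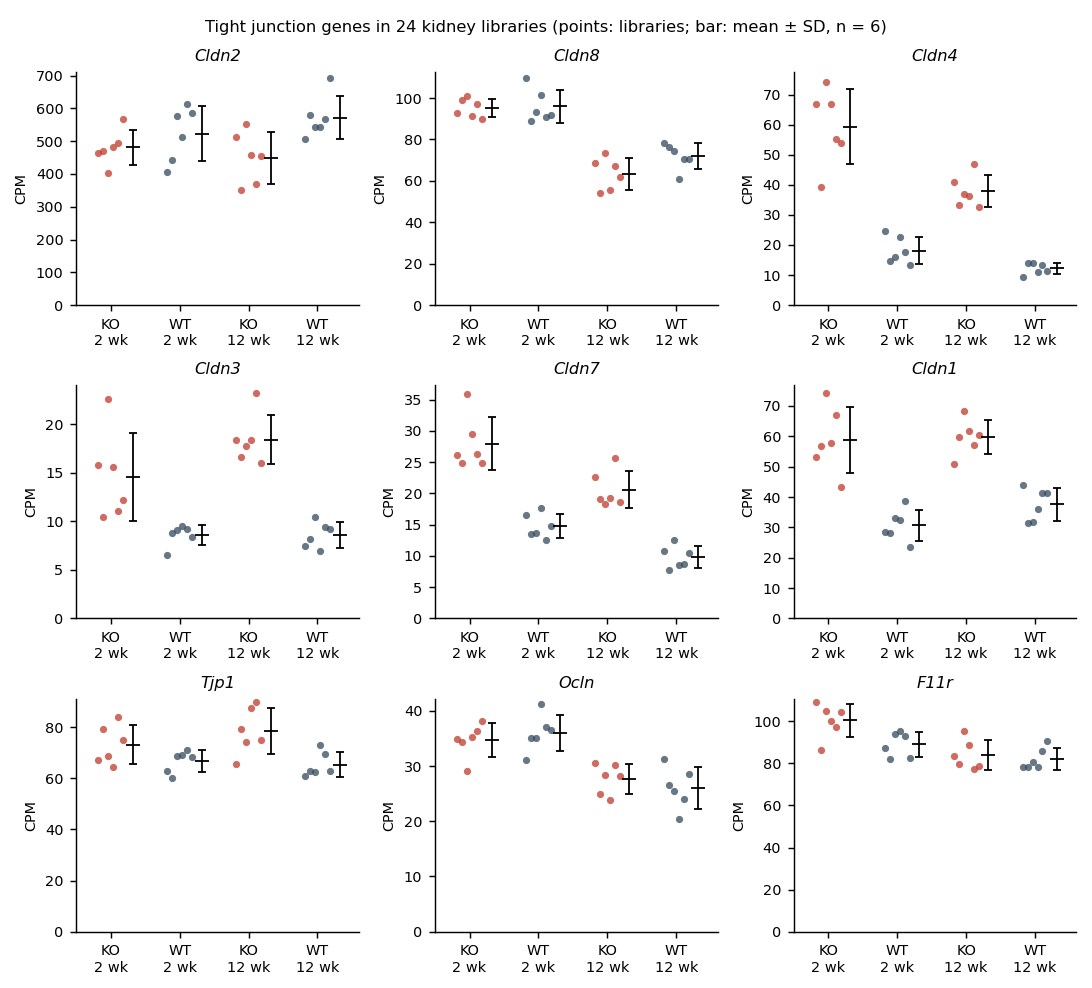
CPM of the 9 genes in each library (1 point per library, linear axes from 0, 1 panel per gene), with KO left of WT at 2 weeks and at 12 weeks and the mean ± SD of each group of 6 beside its points. The KO points of Cldn1, Cldn3, Cldn4 and Cldn7 lie above all WT points of the same duration, whereas those of Cldn8 and Ocln overlap with the WT points.

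Cldn4, the collecting duct claudin that seals against sodium and lets chloride pass, showed the largest difference of the 9 at both durations. It is gene ENSMUSG00000047501, a single exon at chr5:134945119-134946934 (mm10, minus strand). The 6 KO libraries at 2 weeks ran from 39.2 to 74.3 CPM (median 61.0), against 13.3 to 24.6 CPM (median 16.8) in WT. At 12 weeks they ran from 32.6 to 46.8 CPM (median 36.7) in KO, against 9.47 to 14.1 CPM (median 12.4) in WT. The lowest KO library was thus above the highest WT library at either time. The fold was 3.32 at 2 weeks (log2 1.73, SE 0.18, edgeR adjusted p 7.0e-06) and 3.16 at 12 weeks (log2 1.66, SE 0.11, edgeR adjusted p 3.4e-07).

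Cldn3, a sealing claudin of the distal nephron, is the neighbour of Cldn4 on chromosome 5 (ENSMUSG00000070473, chr5:134986214-134987472, plus strand), with 39.279 kb between the genes. Of its 1259 exonic bases, 40 (3.18%) lie opposite Wbscr25 and, as it is not known whether the counting used strand, reads there could belong to either gene. At 2 weeks KO libraries held 10.4 to 22.6 CPM (median 13.8), against 6.53 to 9.50 CPM (median 8.96) in WT. At 12 weeks KO libraries held 16 to 23.2 CPM (median 18.1), against 6.90 to 10.4 CPM (median 8.68) in WT. The groups did not overlap, and the margin at 2 weeks was narrow, since the lowest KO library stood close to the highest WT library. Cldn3 was 1.75-fold higher in KO at 2 weeks (log2 0.81, SE 0.17, edgeR adjusted p 0.0015) and 2.19-fold at 12 weeks (log2 1.13, SE 0.12, edgeR adjusted p 9.6e-06).

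Cldn7, a claudin of the basolateral membrane as well as of the junction in the distal nephron (ENSMUSG00000018569, chr11:69964779-69967885, plus strand), had 24.8 to 35.9 CPM (median 26.2) in KO at 2 weeks, against 12.5 to 17.6 CPM (median 14.3) in WT. At 12 weeks it had 18.4 to 25.7 CPM (median 19.2) in KO, against 7.79 to 12.5 CPM (median 9.60) in WT. All KO libraries were above all WT libraries. The folds were 1.93 at 2 weeks (log2 0.95, SE 0.11, edgeR adjusted p 3.8e-06) and 2.15 at 12 weeks (log2 1.11, SE 0.13, edgeR adjusted p 1.8e-05).

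Cldn1 (ENSMUSG00000022512, chr16:26356642-26371841, minus strand), needed for the barrier of the mouse skin, was also higher in every KO library. At 2 weeks it reached 43.3 to 74.3 CPM (median 57.3) in KO, against 23.5 to 38.6 CPM (median 30.5) in WT. Later, at 12 weeks, it reached 50.9 to 68.2 CPM (median 60.1) in KO, against 31.4 to 43.9 CPM (median 38.6) in WT. The difference was 1.96-fold at 2 weeks (log2 0.97, SE 0.13, edgeR adjusted p 3.2e-05) and 1.62-fold at 12 weeks (log2 0.70, SE 0.09, edgeR adjusted p 7.2e-05). The calls of Cldn1, Cldn3, Cldn4 and Cldn7 at both durations held in all 20 alternatives run for each.

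Among the KO libraries at 2 weeks, replicate 3 had the highest level of Cldn1, Cldn3, Cldn4 and Cldn7 and the lowest of Cldn2 and Ocln. At 12 weeks, KO replicate 5 had the highest level of Cldn3, Cldn4, Cldn7 and Tjp1. The same 2 libraries had the highest summed level of 11 urothelium markers in their groups, 47.7 CPM in KO replicate 3 at 2 weeks and 32.3 CPM in KO replicate 5 at 12 weeks. They also had the highest sum of 8 parietal epithelium markers in their groups, at 559 and 501 CPM. KO replicate 6 at 2 weeks, with the next urothelium sum (36.8 CPM), had the lowest Cldn1 and Cldn7 of its group. The same library had the lowest parietal epithelium and tubular injury sums of its group, at 379 and 7059 CPM. KO replicate 2 at 2 weeks, with a urothelium sum of 22.2 CPM, had the lowest Cldn3 and Cldn4 of its group. KO replicate 2 at 12 weeks, next in its group (26.6 CPM), held 33.2 CPM of Cldn4, below the group median of 36.7 CPM. Over the groups the urothelium sum was 22.2 to 47.7 CPM in KO and 17.8 to 28.1 CPM in WT at 2 weeks, and 12.1 to 32.3 CPM in KO and 1.76 to 12.6 CPM in WT at 12 weeks. Of the 10 urothelium markers that were tested, 1 was higher and 1 lower in KO at 2 weeks. At 12 weeks 4 were higher and 0 lower. Of all genes tested, 18.2% were higher and 13.4% lower at 2 weeks, and 20.7% higher and 17.7% lower at 12 weeks. The sum of 8 parietal epithelium markers was also higher in KO, at 379 to 559 CPM in KO and 172 to 208 CPM in WT at 2 weeks, and at 326 to 501 CPM in KO and 140 to 213 CPM in WT at 12 weeks; 6 of the 8 were higher in KO at 2 weeks and 7 at 12 weeks. Cp (ceruloplasmin), which is also in the injury list, held much of this sum, at 241 ± 56.7 CPM in KO and 46.8 ± 10.3 CPM in WT at 2 weeks, and 192 ± 30.2 CPM in KO and 67.1 ± 9.51 CPM in WT at 12 weeks. The 17 injury genes summed to 7059 to 13271 CPM in KO and 1329 to 1606 CPM in WT at 2 weeks, and to 3923 to 7194 CPM in KO and 1264 to 1423 CPM in WT at 12 weeks. No marker of these lists was at 0 in all libraries of a group. The part of these cell types and of injury in the claudin differences was not tested. With KO replicate 3 or KO replicate 5 left out, the calls of Cldn1, Cldn3, Cldn4 and Cldn7 held. This shows that the calls did not rest on either library, and it does not bear on the part of cell types or injury.

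Cldn2 (ENSMUSG00000047230, chrX:139800828-139811386, plus strand) forms the pore through which sodium and water pass between proximal tubule cells. It did not pass the test at 2 weeks and was lower in KO at 12 weeks. At 2 weeks KO libraries held 404 to 568 CPM (median 476), against 407 to 613 CPM (median 544) in WT (log2 -0.09, SE 0.11, 95% interval -0.30 to 0.11, edgeR adjusted p 0.54). At 12 weeks KO libraries held 351 to 553 CPM (median 456), against 508 to 694 CPM (median 555) in WT. The groups overlapped, with 4 of 6 KO libraries below all WT libraries and 6 of 6 below the WT mean. The fold was 0.802 (log2 -0.32, SE 0.12, edgeR adjusted p 0.040). This call lay near the threshold. It was lost without any 1 of KO replicates 2, 4, 5 and 6 or of WT replicates 2, 3, 4, 5 and 6 at 12 weeks. The log2 values were then -0.33 to -0.25, with edgeR adjusted p of 0.051 to 0.096.

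The values of Cldn2 stand beside those of the proximal tubule markers as a group. Their summed level was 28728 to 45566 CPM in KO and 36325 to 47620 CPM in WT at 2 weeks, and 25034 to 39187 CPM in KO and 45904 to 55621 CPM in WT at 12 weeks. The median log2 fold change of the 15 markers was -0.51 at 2 weeks and -0.60 at 12 weeks, where Cldn2 had -0.09, which did not pass the test, and -0.32. The sodium-glucose transporter gene Slc5a2 averaged 197 ± 16.7 CPM in KO and 294 ± 34.6 CPM in WT at 2 weeks, and the phosphate transporter gene Slc34a1 averaged 2851 ± 503 CPM in KO and 5152 ± 715 CPM in WT at 12 weeks. The part of the proximal tubule's share of the RNA in the Cldn2 difference was not tested.

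Cldn8 (ENSMUSG00000050520, chr16:88560828-88563183, minus strand) is the collecting duct claudin that recruits claudin-4 to the junction in mouse collecting duct cells. It passed the test at neither duration. At 2 weeks its 6 KO libraries lay within 89.8 and 101 CPM (median 94.9), against 88.7 to 109.8 CPM (median 92.7) in WT (log2 0.01, SE 0.07, 95% interval -0.12 to 0.15, edgeR adjusted p 0.91). At 12 weeks they lay within 54.2 and 73.3 CPM (median 64.5), against 61.1 to 78.5 CPM (median 72.6) in WT (log2 -0.15, SE 0.08, 95% interval -0.32 to 0.01, edgeR adjusted p 0.17). The groups overlapped at both times. The 11 principal cell markers, which mark the cells that carry Cldn8, summed to 408 to 568 CPM in KO and 566 to 677 CPM in WT at 2 weeks, and to 235 to 436 CPM in KO and 452 to 682 CPM in WT at 12 weeks. Of these 11, 3 were lower and 0 higher at 2 weeks, where 13.4% of all genes tested were lower and 18.2% higher. At 12 weeks 7 were lower and 0 higher, where 17.7% of all genes were lower and 20.7% higher. The median log2 fold change of the 11 markers was 0.01 at 2 weeks and -0.50 at 12 weeks. The water channel gene Aqp3 averaged 46.0 ± 7.65 CPM in KO and 86.8 ± 7.73 CPM in WT at 2 weeks, and 41.9 ± 9.20 CPM in KO and 92.6 ± 19.6 CPM in WT at 12 weeks. The part of the principal cells' share of the RNA in the Cldn8 values was not tested.

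Tjp1 (ENSMUSG00000030516, chr7:65296165-65527781, minus strand), the ZO-1 scaffold that organises claudin strands, had 64.6 to 84.1 CPM (median 71.8) in KO at 2 weeks, against 60.0 to 71.0 CPM (median 68.5) in WT (log2 0.16, SE 0.07, edgeR adjusted p 0.11). The 12-week range was 65.7 to 89.8 CPM (median 77.1) in KO, against 60.9 to 73.1 CPM (median 62.9) in WT. Of the KO libraries at 12 weeks, 5 of 6 lay above all WT libraries. The difference was 1.23-fold (log2 0.29, SE 0.08, edgeR adjusted p 0.0089) and held in all 20 alternatives.

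F11r (ENSMUSG00000038235, chr1:171437535-171464603, plus strand), the adhesion molecule JAM-A, had 86.4 to 109 CPM (median 102) in KO at 2 weeks, against 82.2 to 95.2 CPM (median 90.0) in WT. Here too 5 of 6 KO libraries lay above all WT libraries. The fold was 1.15 (log2 0.20, SE 0.07, edgeR adjusted p 0.040), and the call was lost without any 1 of KO replicates 1, 3, 4 and 6 or of WT replicates 1, 2 and 6 (edgeR adjusted p 0.056 to 0.094). At 12 weeks F11r held 77.2 to 95.3 CPM (median 81.7) in KO, against 78.3 to 90.7 CPM (median 79.6) in WT (log2 0.06, SE 0.07, edgeR adjusted p 0.51).

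Ocln (ENSMUSG00000021638, chr13:100496507-100552718, minus strand), which is concentrated in tight junctions and regulates them, passed the test at neither duration. At 2 weeks it held 29.1 to 38.2 CPM (median 35.1) in KO, against 31.1 to 41.2 CPM (median 35.8) in WT (log2 -0.02, SE 0.08, 95% interval -0.18 to 0.13, edgeR adjusted p 0.85). Its level at 12 weeks was 23.8 to 30.5 CPM (median 28.3) in KO, against 20.3 to 31.3 CPM (median 26.0) in WT (log2 0.12, SE 0.10, 95% interval -0.08 to 0.31, edgeR adjusted p 0.37). The KO and WT libraries overlapped at both times.

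**Figure D2:**
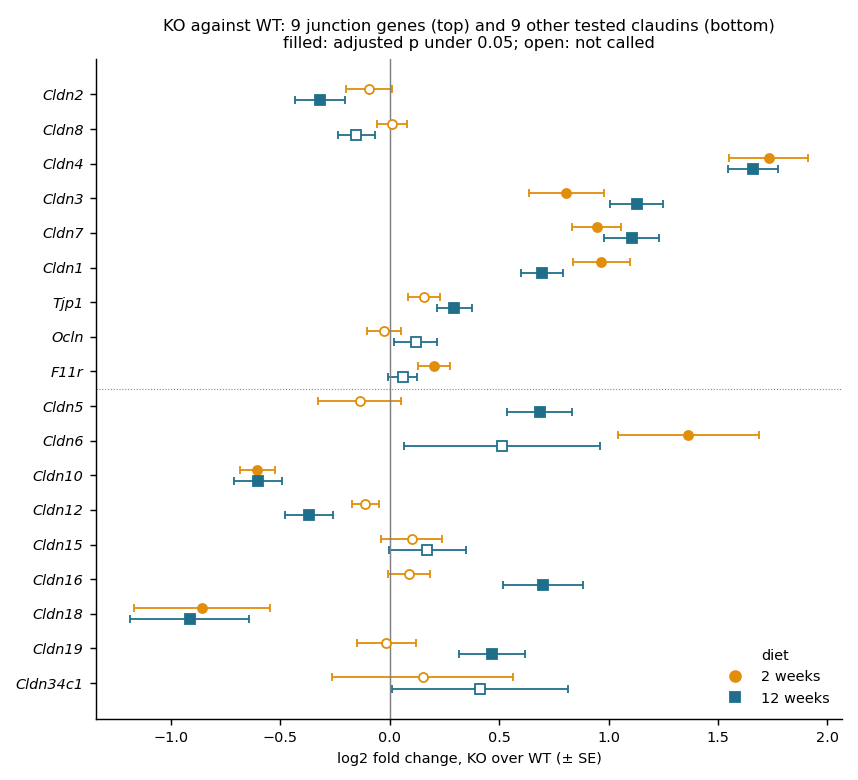
Log2 fold change of KO over WT (± SE) at 2 weeks (circles) and at 12 weeks (squares) for the 9 genes above the dotted line and the 9 other tested claudins below it; filled symbols passed the adjusted p threshold. Cldn4 stands at 1.73 and 1.66, and Cldn2 lies left of 0 with an open symbol at 2 weeks.

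The 2 genotype effects were set against each other with an interaction term over all 24 libraries. None of the 9 genes passed it, in either direction, at an adjusted or an unadjusted p, and DESeq2 also called 0; of all genes tested 0.174% passed, 0.116% as higher and 0.0579% as lower. Interaction log2 values, the KO effect at 12 weeks minus that at 2 weeks, ran from -0.27 (SE 0.17) for Cldn1 to 0.33 (SE 0.22) for Cldn3, with edgeR adjusted p of 0.58 to 0.94. Thus the call of Cldn2 and Tjp1 at 12 weeks and of F11r at 2 weeks does not show that their genotype effects differ between the durations.

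Relations between claudins within a library do not depend on the scaling of the library, and these were taken as ratios of CPM per kilobase of exon. The Cldn4 to Cldn2 ratio, the distal against the proximal claudin, averaged 0.231 ± 0.0676 in KO and 0.0663 ± 0.0254 in WT at 2 weeks (SD, n = 6 each). At 12 weeks it averaged 0.159 ± 0.0402 in KO and 0.0394 ± 0.00654 in WT. KO and WT libraries did not overlap, with geometric means 3.55-fold apart at 2 weeks and 3.98-fold apart at 12 weeks. Against Cldn8, its partner in the collecting duct, Cldn4 averaged 0.812 ± 0.173 in KO and 0.243 ± 0.0416 in WT at 2 weeks, and 0.778 ± 0.0953 in KO and 0.222 ± 0.0343 in WT at 12 weeks. This ratio too separated every KO from every WT library, so Cldn4 and Cldn8 did not change in proportion in whole-kidney RNA. The cells behind the difference cannot be told from these ratios. Cldn7 and Cldn3 were likewise higher against Cldn8 in KO, by 1.90-fold and 1.66-fold at 2 weeks and by 2.41-fold and 2.44-fold at 12 weeks, with no overlap. The Cldn2 to Cldn8 ratio overlapped, averaging 3.6 ± 0.535 in KO and 3.90 ± 0.803 in WT at 2 weeks, and 5.03 ± 0.690 in KO and 5.68 ± 0.845 in WT at 12 weeks. These ratios share their libraries and members, and they are given without a test.

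**Figure D3:**
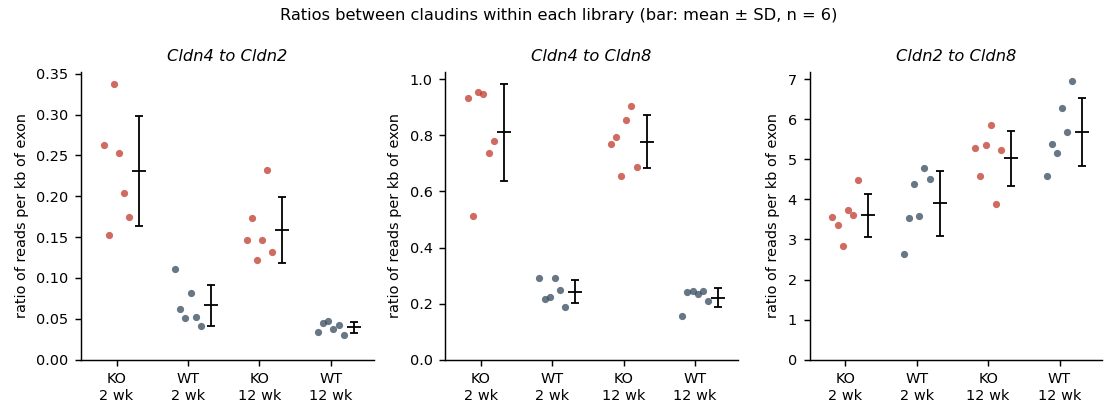
Ratios of levels per kilobase of exon between claudins in each library (1 point per library, linear axes from 0, mean ± SD beside the points, n = 6), KO left of WT at each duration. The Cldn4 to Cldn2 and Cldn4 to Cldn8 ratios of KO and WT do not overlap, and those of Cldn2 to Cldn8 do.

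The order of the 9 genes by CPM per kilobase had Cldn2 first in all 4 groups, apart from the next gene, at 145 ± 15.9 in KO and 157 ± 25.2 in WT at 2 weeks, and at 135 ± 23.7 in KO and 172 ± 19.4 in WT at 12 weeks. Cldn8 and F11r followed in every group. Their levels at 2 weeks were 40.4 ± 1.92 and 37.7 ± 3.0 in KO, with overlapping ranges, and 40.8 ± 3.40 and 33.4 ± 2.17 in WT, with ranges apart. At 12 weeks their ranges overlapped in KO as in WT. Cldn4 stood after these 3 genes in both KO groups, at 32.7 ± 6.90 and 20.8 ± 2.92 CPM per kilobase at 2 and 12 weeks, where its range overlapped with that of the gene above it. In WT at 2 weeks it also came after them, with a range of 7.32 to 13.5, apart from F11r above it. In WT at 12 weeks it averaged 6.74 ± 1.02 and stood below Tjp1, Cldn1 and Cldn3, where neighbours in the order overlapped. The lowest place was held by Ocln in KO, and by Cldn1 at 2 weeks and Cldn7 at 12 weeks in WT.

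Summed over the 6 claudins, CPM per kilobase came to 256 ± 10.5 in KO and 229 ± 23.2 in WT at 2 weeks, and to 220.5 ± 25.9 in KO and 229 ± 20 in WT at 12 weeks. Cldn2 made up 56.5% ± 5.37 of this sum in KO and 68.4% ± 4.78 in WT at 2 weeks, and 61.0% ± 4.57 in KO and 75% ± 2.34 in WT at 12 weeks. The share of Cldn4 was 12.8% ± 2.55 in KO and 4.44% ± 1.35 in WT at 2 weeks, and 9.53% ± 1.57 in KO and 2.95% ± 0.457 in WT at 12 weeks. Cldn8 kept shares of 15.8% ± 1.26 in KO and 18% ± 2.86 in WT at 2 weeks, and of 12.2% ± 0.942 in KO and 13.4% ± 1.57 in WT at 12 weeks. The shares of Cldn4 did not overlap between KO and WT at either duration. Those of Cldn2 overlapped at 2 weeks, at 47.3% to 63.2% in KO and 60.6% to 72.9% in WT, and lay apart at 12 weeks, at 53.1% to 65.1% in KO and 72.1% to 78.4% in WT. A share falls when other claudins of the sum rise, and the level of Cldn2 itself did not pass the test at 2 weeks (log2 -0.09). These are shares among the 6 claudins, and other claudins such as Cldn10 are outside the sum, whose ranges overlapped between KO and WT.

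**Figure D4:**
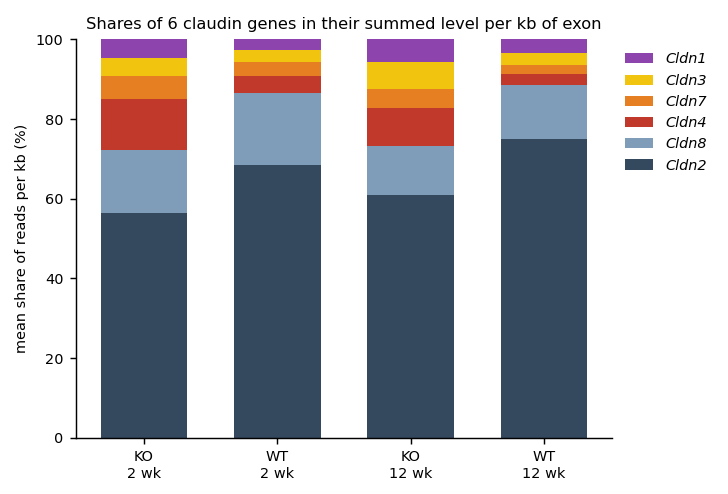
Mean share of each of 6 claudins in their summed CPM per kilobase (stacked bars from 0 to 100%, 6 libraries a bar), KO left of WT at each duration. Cldn2 takes 56.5% in KO and 68.4% in WT at 2 weeks, and 61.0% in KO and 75% in WT at 12 weeks.

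The durations were also compared within each genotype. In KO kidneys 5 of the 9 genes were lower and 0 higher at 12 than at 2 weeks, where 33.8% of all genes passed, 16.1% as lower; these were Cldn4, Cldn8, Cldn7, Ocln and F11r. In WT kidneys 4 were lower (Cldn8, Ocln, Cldn7 and Cldn4) and 0 higher, where 30.4% of all genes passed, 14.7% as lower. At an unadjusted p under 0.05, 1 gene was higher in each genotype, and DESeq2 called 0 higher in either. Cldn8 averaged 63.4 ± 7.64 CPM at 12 weeks and 95.2 ± 4.52 CPM at 2 weeks in KO (log2 -0.59, SE 0.08, edgeR adjusted p 6.5e-07). In WT it averaged 71.9 ± 6.14 CPM at 12 weeks and 96.0 ± 8.02 CPM at 2 weeks (log2 -0.42, SE 0.08, edgeR adjusted p 9.7e-05). The durations did not overlap for Cldn8 in either genotype, a separation downward seen in 7.24% of all genes in KO and 7.67% in WT; none of the 9 separated upward, as 7.03% of all genes did in KO and 8.28% in WT. Cldn4 averaged 37.8 ± 5.30 CPM at 12 weeks and 59.4 ± 12.5 CPM at 2 weeks in KO (log2 -0.65, SE 0.15, edgeR adjusted p 0.0011), and 12.2 ± 1.85 CPM at 12 weeks and 18.2 ± 4.49 CPM at 2 weeks in WT (log2 -0.58, SE 0.16, edgeR adjusted p 0.0071). The log2 values were -0.44 in KO and -0.60 in WT for Cldn7, -0.32 in KO and -0.47 in WT for Ocln, and -0.26 in KO for F11r. The libraries of the 2 durations also differed in depth and in the predicted gene Gm42418, which had 0 counts in every library at 2 weeks and at least 71635 in every library at 12 weeks. Duration and whatever else set these libraries apart cannot be told apart.

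Other claudins were taken as a list of 22, of which 9 had enough counts to be tested. At 2 weeks 1 was higher and 2 lower in KO, and at 12 weeks 3 were higher and 3 lower, where 31.6% and 38.5% of all genes passed in either direction, with a median log2 fold change of -0.02 at 2 weeks and 0.41 at 12 weeks. Cldn10, which gives an anion pore in the proximal tubule and a cation pore in the thick ascending limb from separate isoforms, was lower at both durations without overlap of the groups. It averaged 145 ± 11 CPM in KO and 224 ± 21.5 CPM in WT at 2 weeks (log2 -0.60, SE 0.08, edgeR adjusted p 1.3e-05). At 12 weeks it averaged 152 ± 24.6 CPM in KO and 235 ± 30.4 CPM in WT (log2 -0.60, SE 0.11, edgeR adjusted p 0.00070). Its isoforms were not separated, as the counts are per gene. The second claudin lower at 2 weeks, and also lower at 12 weeks, was Cldn18 (log2 -0.86, SE 0.31, edgeR adjusted p 0.042 and log2 -0.91, SE 0.27, edgeR adjusted p 0.015), named after its values were seen and with a mean under 1 CPM in KO. Without any 1 of KO replicates 1, 3, 4 and 5 or of WT replicates 1, 2, 4, 5 and 6, the 2 lower at 2 weeks became 1, whereas Cldn10 was called in all 20 alternatives. Cldn6, a claudin of embryonic epithelia, was higher at 2 weeks (log2 1.37, SE 0.32, edgeR adjusted p 0.0031), at 1.85 ± 0.702 CPM in KO and 0.760 ± 0.372 CPM in WT.

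At 12 weeks 3 of these claudins were higher in KO. Cldn16, which with Cldn19 forms the route by which magnesium and calcium leave the urine in the thick ascending limb, averaged 12.6 ± 3.29 CPM in KO and 7.96 ± 1.64 CPM in WT (log2 0.70, SE 0.18, edgeR adjusted p 0.0072). Cldn19 averaged 33.2 ± 7.59 CPM in KO and 24.5 ± 4.13 CPM in WT (log2 0.47, SE 0.15, edgeR adjusted p 0.024), a call lost without KO replicate 5 or without WT replicate 6 (edgeR adjusted p 0.059 and 0.054). Of 8 markers of this limb, 0 were higher and 3 lower in KO at 12 weeks. Of all genes tested, 20.7% were higher and 17.7% lower at that time. The endothelial claudin Cldn5 was higher too, at 13.7 ± 3.10 CPM in KO and 8.69 ± 1.22 CPM in WT (log2 0.69, SE 0.15, edgeR adjusted p 0.0022), and of 8 endothelial markers 0 were higher and 3 lower. The part of these cell types in the claudin values was not tested. Cldn12, which adds to calcium passage in the mouse proximal tubule, was lower, at 79.1 ± 12.8 CPM in KO and 104 ± 14.0 CPM in WT (log2 -0.37, SE 0.11, edgeR adjusted p 0.016).

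Partners of the junction, 37 genes of scaffolds, polarity complexes and adhesion molecules were counted over the 36 that were tested. At 2 weeks 8 were higher and 7 lower in KO, where 18.2% of all genes tested were higher and 13.4% lower. At 12 weeks 11 were higher and 7 lower, where 20.7% of all genes were higher and 17.7% lower. The 7 lower at 2 weeks became 4 without KO replicate 4, and the 11 higher at 12 weeks became 7 without KO replicate 5. The median log2 fold change was 0.02 at 2 weeks and 0.07 at 12 weeks. Jam2, a relative of F11r, rose to 15 ± 0.472 CPM in KO, against 9.12 ± 1.14 CPM in WT, at 2 weeks (log2 0.75, SE 0.10, edgeR adjusted p 9.6e-06), and to 22.1 ± 5.06 CPM in KO, against 11.5 ± 3.77 CPM in WT, at 12 weeks (log2 0.96, SE 0.21, edgeR adjusted p 0.0027). Cxadr, the adhesion receptor for coxsackie- and adenovirus (log2 0.57), and Ybx3, a transcription factor that binds ZO-1 (log2 0.37), were higher at 2 weeks. At 12 weeks Ybx3 (log2 0.34) and Rab13, a small GTPase of junction assembly (log2 0.50), were higher. Among the genes that fell at both durations were Ildr2, a relative of the tricellular junction protein angulin (log2 -0.48 and -0.67), Cgnl1, the scaffold paracingulin (log2 -0.41 and -0.41), and Prkcz, an atypical protein kinase C of the polarity complex (log2 -0.33 and -0.58). Ildr1, a further angulin, was lower at 2 weeks (log2 -0.24), a call lost without KO replicate 4 (edgeR adjusted p 0.051), and the polarity scaffold Patj was lower at 12 weeks (log2 -0.39).

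Regulators of junctions and claudins were a list of 21 genes, all tested. At 2 weeks 6 were higher and 5 lower in KO, where 31.6% of all genes passed in either direction, and at 12 weeks 8 were higher and 6 lower, where 38.5% passed. The 8 became 5 without KO replicate 2 or without KO replicate 5. Klhl3, the ubiquitin ligase adaptor that targets WNK kinases and, in mouse collecting duct, claudin-8, was lower without overlap, at 43.5 ± 8.16 CPM in KO and 74.9 ± 7.91 CPM in WT at 2 weeks (log2 -0.76, SE 0.11, edgeR adjusted p 4.1e-05) and at 34 ± 4.79 CPM in KO and 58.8 ± 6.52 CPM in WT at 12 weeks (log2 -0.76, SE 0.10, edgeR adjusted p 4.1e-05). Wnk4, a kinase of distal salt transport, fell with it (log2 -0.39 and -0.36), and so did the membrane protease gene Prss8 (log2 -0.33 and -0.58). Epcam, which binds claudin-7 and keeps it from degradation, was higher at 116 ± 17.9 CPM in KO and 89.9 ± 6.78 CPM in WT at 2 weeks (log2 0.39, SE 0.10, edgeR adjusted p 0.0044), and at 68.7 ± 12.7 CPM in KO and 48.8 ± 7.03 CPM in WT at 12 weeks (log2 0.52, SE 0.12, edgeR adjusted p 0.0034). St14 (matriptase), which cleaves EpCAM, was higher at 12 weeks (log2 0.58, SE 0.08, edgeR adjusted p 6.8e-05), and Spint2, its inhibitor, at 2 weeks (log2 0.41). Non-muscle myosin Myh9 (log2 0.58 and 0.60) and the repressor Zeb2, known to silence E-cadherin (log2 0.64 and 0.50), were higher at both durations. The E-cadherin gene Cdh1, named outside the rule given below, was not among the genes called lower at either duration. This was read from the fits of the 12 libraries of each duration. The 10 leukocyte markers summed to 759 to 1431 CPM in KO and 271 to 340 CPM in WT at 2 weeks, and to 779 to 1784 CPM in KO and 246 to 453 CPM in WT at 12 weeks, with 8 of 10 higher in KO at either duration. The part of leukocytes in the values of the junction partners, regulators and adherens genes was not tested. Wnk1 was lower at 2 weeks (log2 -0.44).

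Of 18 genes of the adherens junctions and desmosomes, 5 were higher and 3 lower in KO at 2 weeks, where 18.2% of all genes were higher and 13.4% lower. At 12 weeks 6 were higher and 2 lower, where 20.7% of all genes were higher and 17.7% lower. The 2 lower at 12 weeks became 4 with all 24 libraries in 1 fit. Cdh6, a cadherin of the early nephron, averaged 16.4 ± 4.28 CPM in KO and 9.31 ± 1.43 CPM in WT at 2 weeks (log2 0.85, SE 0.15, edgeR adjusted p 0.00033), and 17 ± 3.19 CPM in KO and 6.68 ± 1.52 CPM in WT at 12 weeks (log2 1.38, SE 0.16, edgeR adjusted p 1.8e-05). Nectin2 (log2 0.75 and 0.74) and the desmosomal cadherin Dsg2 (log2 0.41 and 0.68) were higher at both durations, Dsp (desmoplakin) at 2 weeks (log2 0.30) and Vcl (vinculin) at 12 weeks (log2 0.37). Cdh2, the N-cadherin of the proximal tubule, was lower at 5.05 ± 0.989 CPM in KO and 6.95 ± 0.834 CPM in WT at 2 weeks (log2 -0.44, SE 0.14, edgeR adjusted p 0.026), and at 4.48 ± 0.853 CPM in KO and 8.03 ± 1.12 CPM in WT at 12 weeks (log2 -0.81, SE 0.16, edgeR adjusted p 0.0010). Pkp4, a plakophilin relative, was lower at both (log2 -0.38 and -0.53), and Afdn (afadin) at 2 weeks (log2 -0.24). The 2-week calls were lost without any 1 of KO replicates 1 and 4 and WT replicates 2 and 3 for Cdh2 (edgeR adjusted p 0.055 to 0.067), and without any 1 of KO replicates 1, 3 and 4 and WT replicates 1, 5 and 6 for Afdn (edgeR adjusted p 0.050 to 0.065); without KO replicate 1 or KO replicate 4, 1 gene of the list was lower at 2 weeks.

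Among the genes whose pattern over the 24 libraries was most like that of Cldn4, by the root mean square difference of centred log2 CPM among 13599 candidates, were Tubb2b (0.228) and Muc1 (0.229), beside a median of 0.968 over all candidates. The cell surface mucin gene Muc1 averaged 36.5 ± 5.35 CPM in KO and 10.6 ± 2.34 CPM in WT at 2 weeks, and 27.7 ± 7.22 CPM in KO and 7.78 ± 1.39 CPM in WT at 12 weeks. Nearest to Cldn2 were Gkap1 (0.103), Erlin2 (0.103) and Gng12 (0.104), with a median of 0.331. Nearest to Cldn8 were Hoxd8 (0.108), Slc35a1 (0.111) and Pak1ip1 (0.112), with a median of 0.382. Among the 9 genes themselves, the closest pair was Cldn8 and Ocln (0.183) and the farthest Cldn2 and Cldn4 (1.06). The libraries share their kidneys and their depth, so these distances describe the libraries and carry no test.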

How the data were processed

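The authors deposited raw counts of reads, 1 file per library with a count for every Ensembl gene and no normalization. Per the labels' protocols, RNA was purified with Maxwell RSC simplyRNA kits and libraries were made with NEBNext Ultra kits. The submitters' processing notes name fastp, STAR 2.5, HTSeq 0.6.1 and build mm10; the annotation release and the options, strand included, were not given in the sources used here. GENCODE M21, used for symbols, positions and exon lengths, matched 54495 of 54532 identifiers; the 37 others held at most 0.00528% of a library's counts. The test was edgeR's quasi-likelihood test (version 4.0.16, R 4.3.3, robust, TMM scaling, two-sided), with Benjamini-Hochberg adjustment and a threshold of 0.05, over 17286 genes kept by filterByExpr (minimum count 10, minimum total 15). Genotype comparisons used the 12 libraries of a duration; the interaction and duration comparisons used all 24. The standard error is the absolute log2 fold change over the square root of F, and 95% intervals are this error times the normal quantile on either side. No pair of libraries was close to a duplicate (smallest chi-square per degree of freedom 6.12). Alternatives were RLE and upper-quartile scaling, DESeq2 1.42.0, a floor of 1 CPM on the mean, no filter, a replicate block, removal of Gm42418, all 24 libraries in 1 fit and each library left out. The members and gene lists were chosen with earlier results of these data known. Named genes are the members, Lrp2, up to 4 called genes per direction of each junction list (up to 2 of each marker list) with a mean of at least 1 CPM and the smallest adjusted p, and the 3 genes most like Cldn2, Cldn4 and Cldn8; genes named outside this rule are given as such, and a few genes it selects are left unreported. Of 220 list entries, Cldn25 matched no identifier. Marker list counts not given in the results are, as called higher and lower in KO at 2 weeks, then at 12 weeks: thin limb 2 and 3, then 2 and 1 of 7; thick ascending limb 0 and 6 of 8 at 2 weeks; distal convoluted tubule 1 and 5, then 1 and 2 of 8; intercalated cells 0 and 9, then 0 and 8 of 10; endothelium 0 and 2 of 8 at 2 weeks. Beside these counts, 18.2% of all genes tested were higher and 13.4% lower at 2 weeks, and 20.7% higher and 17.7% lower at 12 weeks. Figures were drawn with matplotlib 3.10.9 in Python 3.11.15.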

Additional observations from a re-analysis of the deposited data

Results flagged for a closer look

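In the 12-week KO group, replicate 5 stood apart from the other libraries for Cldn3, at 23.2 CPM where the others held 16 to 18.4 CPM. Its gap to the nearest library was 0.667 of the group's range, above Dixon's 95% critical value for 6 samples. It was 1 of 36 groups of members examined, and chance flags about 1 in 20 such groups.

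The genotype effect on Igsf5, the junctional adhesion molecule JAM-4 of kidney and gut epithelia, differed between the durations (interaction log2 -0.59, SE 0.11, edgeR adjusted p 0.014). At 2 weeks Igsf5 held 33.3 to 46.5 CPM (mean 38.3) in KO and 29.8 to 34.8 CPM (mean 32.2) in WT (log2 0.27, SE 0.08, edgeR adjusted p 0.012). At 12 weeks it averaged 23.6 ± 2.71 CPM in KO and 30.0 ± 1.67 CPM in WT (log2 -0.32, SE 0.08, edgeR adjusted p 0.0075). The interaction stayed past the threshold in all 31 alternatives run for it, with adjusted p of 0.00062 to 0.042. A second identifier with the same symbol overlaps the gene on the same strand and held at most 13 counts over a group, so the split of reads between them is uncertain.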

How the results depend on the processing

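No result reversed under the alternatives run. The count of 1 member lower in KO at 12 weeks, which is Cldn2, became 0 without the count filter and with the replicate block, and was 0 to 1 with single libraries left out. The Cldn2 call was lost in 11 of 20 alternatives, with log2 values over all 20 of -0.39 to -0.25 and adjusted p of 0.014 to 0.096. The F11r call at 2 weeks was lost in 10 of 20, RLE scaling, no filter and the block among them (log2 0.18 to 0.25, adjusted p 0.0058 to 0.094). The interaction counts over all genes, 20 higher and 10 lower, were 91 and 63 with DESeq2 and 6 lower without the filter; with single libraries left out they ran over 17 to 34 higher and 4 to 22 lower. From 2 to 12 weeks, 0 to 1 members were higher in KO with single libraries left out (Cldn3, without KO replicate 3 at 2 weeks, adjusted p 0.0041) and 0 to 1 in WT (Cldn1), and 1 in WT with the replicate block. The cause was not tested. Replicate numbers did not pair the libraries: same-numbered libraries had residual correlations of -0.28 to 0.17 over 36 pairs. With the replicate block, 2965 genes were higher and 2138 lower in KO at 2 weeks (3144 and 2323 without it), and 3220 higher and 2730 lower at 12 weeks (3585 and 3068 without it); junction partners higher at 12 weeks became 7. The lowest count of a member in a library was 74, for Cldn3 at 12 weeks.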
